A study of Mus musculus with 2 samples.

Results

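The 10 genes described here handle iron in the cell: Tfrc, Steap3 and Slc11a2 bring it in, Slc25a37 and Slc25a28 pass it to mitochondria, Fth1 and Ftl1 store it, Slc40a1 exports it, and Aco1 and Ireb2 encode the iron regulatory proteins. They were chosen by name, and all 10 were found among the 42462 gene rows that carried a GENCODE symbol. They were measured in G1E-ER4, a mouse erythroid cell line whose Gata1 function was restored by a Gata1 protein that answers to estradiol. The cells had been kept in 17beta-estradiol at 10 nM for 7 hours, and polyA RNA was sequenced in 2 libraries, labelled biological replicates 1 and 2. Their labels point to 1 shared biosample, so the spread between these libraries may be only technical. The labels give no untreated sample and no other time, so the values are levels in treated cells, no change with estradiol was measured, and no test between conditions was made. The cells descend from Gata1-null stem cells, so their Gata1 activity depends on the introduced protein and the added hormone.

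A red cell precursor needs much iron for heme. Iron bound to transferrin enters through the transferrin receptor (Tfrc) into endosomes, where Steap3 reduces it and the transporter DMT1 (Slc11a2) carries it into the cytosol. Mitoferrin 1 (Slc25a37) and mitoferrin 2 (Slc25a28) then move iron into mitochondria, where heme is made, while surplus iron is held in ferritin shells built of heavy (Fth1) and light (Ftl1) subunits or leaves through ferroportin (Slc40a1). When iron is scarce, the iron regulatory proteins IRP1 (Aco1) and IRP2 (Ireb2) bind a stem-loop in messenger RNA, the iron-responsive element. A stem-loop in the 5′ UTR of a ferritin or ferroportin transcript is known to block translation when bound, and stem-loops in the 3′ UTR of Tfrc are known to protect that transcript from decay.

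The libraries held 59610969 and 44689405 expected counts in replicates 1 and 2, where an expected count is the authors' estimate of fragments from a gene. All 9 erythroid markers examined were detected, that is, at a TPM (transcript abundance scaled by length and library size) of at least 1 in both libraries, and they summed to 21455 and 13128. Of 9 macrophage markers Cd68 alone was detected, and the list summed to a TPM of 1.75 and 1.96. Adgre1, Cd163, Mrc1, Vcam1 and Spic had 0 counts in both libraries. None of 6 hepatocyte and 4 intestinal markers was detected. Of 5 megakaryocyte markers 3 were detected, and that list summed to 90.8 and 96.8. In bulk RNA, fewer cells of a type and less RNA per cell cannot be told apart.

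The iron-responsive elements of the members are shown here because they mark which genes, and for Slc11a2 and Slc40a1 which transcripts, hold the form that the regulatory proteins are known to bind. Reference transcripts of GENCODE M21 (build GRCm38) were searched on the transcript strand for a C, any 5 bases, CAGTGN (N being any base) and any 5 bases more, where the 5 bases on each side of CAGTGN could pair at 4 or more of 5 positions with A-T, G-C or G-T pairs. The search found 8 sites in the UTRs of 5 members. Where a transcript is said below to carry or lack an element, such a match is meant. Elements that vary from this pattern would be missed. UTRs of 4.91% of all 21866 protein-coding genes held a match of this kind, and those of 0.732% held one with all 5 pairs. Each window below is 30 bases long, 5′ to 3′, written in DNA letters, with the bulged C and the loop CAGTGN in capitals.
Fth1, 5′ UTR, chr19:9982731-9982760, plus strand: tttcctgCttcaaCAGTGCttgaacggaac
Ftl1, 5′ UTR, chr7:45459779-45459808, minus strand: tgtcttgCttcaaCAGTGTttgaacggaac
Slc40a1, 5′ UTR, chr1:45925465-45925494, minus strand: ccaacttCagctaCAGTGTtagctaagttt
Slc11a2, 3′ UTR, chr15:100395153-100395182, minus strand: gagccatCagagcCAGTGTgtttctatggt
Tfrc site 1, 3′ UTR, chr16:32631218-32631247, plus strand: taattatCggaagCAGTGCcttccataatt
Tfrc site 2, 3′ UTR, chr16:32631597-32631626, plus strand: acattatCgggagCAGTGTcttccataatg
Tfrc site 3, 3′ UTR, chr16:32631662-32631691, plus strand: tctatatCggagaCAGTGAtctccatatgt
Tfrc site 4, 3′ UTR, chr16:32631709-32631738, plus strand: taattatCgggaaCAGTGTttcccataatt

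The ferritin windows were alike at 27 of 30 bases and shared every base of the upper stem. They differed at the last base of the loop and in the lower stem, where Fth1 paired at 4 and Ftl1 at 5 of the 6 positions compared. All sites but that of Slc11a2 paired at all 5 upper stem positions, and Slc11a2 paired at 4. In the coding transcript Fth1-201 the window ended 109 bases before the start codon, in Ftl1-201 147 bases before it and in Slc40a1-201 201 bases before it. The Slc11a2 window began 33 bases after the coding sequence of Slc11a2-205, and the Tfrc windows began 884, 1263, 1328 and 1375 bases after that of Tfrc-201. No match was found in the UTRs of Steap3, Slc25a37, Slc25a28, Aco1 and Ireb2, which says only that these letters are not there. Among other iron genes, Alas2, known for such an element, held a match with all 5 pairs, and Glrx3 held one with 4.

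**Figure D1:**
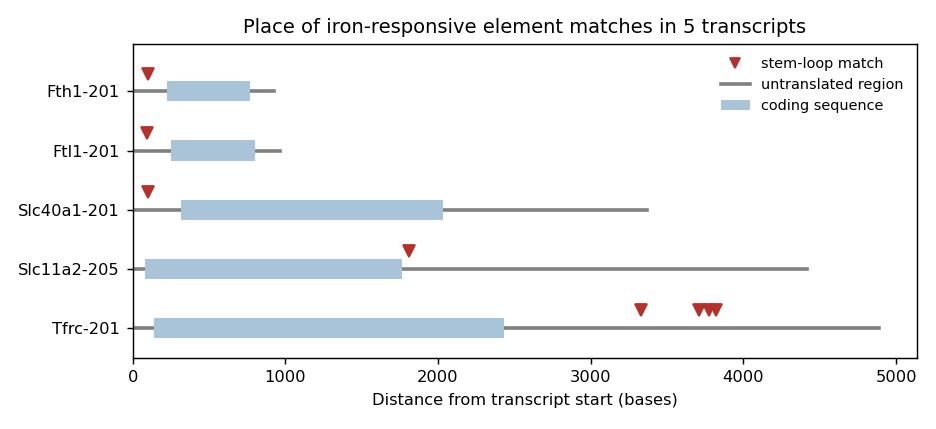
Place of the iron-responsive element matches (triangles) along 5 reference transcripts, in bases from the transcript start, with coding sequence as boxes and untranslated regions as lines. Fth1, Ftl1 and Slc40a1 carry 1 match each before the coding sequence, and Slc11a2 has 1 and Tfrc has 4 after it.

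All 10 members were detected, where 38.3% of 21474 protein-coding genes were. Their levels spanned from a mean TPM of 2.50 for Ireb2 to 19272 for Fth1. The ferritin pair dominated, holding 96.5% and 97.4% of the members' expected counts in replicates 1 and 2. The median TPM of the 10 members was 30.2 and 25.3, against 21.2 and 19.6 for detected protein-coding genes.

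In order of mean TPM the genes ran Fth1, Ftl1, Steap3, Slc25a28, Slc25a37, Tfrc, Aco1, Slc11a2, Slc40a1 and Ireb2, and each library taken by itself gave the same order. Tfrc and Aco1 were the one pair of neighbours whose values overlapped across the libraries, 17.8 being the lowest of Tfrc and 20.0 the highest of Aco1. Mitoferrin 2 and mitoferrin 1 came close, with 38.4 as the lowest value of Slc25a28 and 34.6 as the highest of Slc25a37. With 2 libraries and no test this order is a description.

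**Figure D2:**
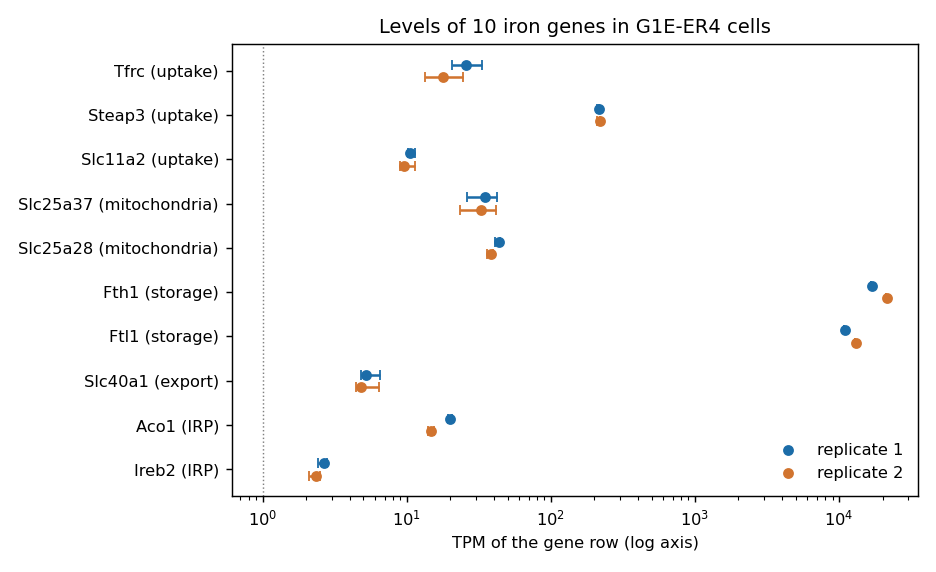
TPM of each gene row (points, log axis) in replicates 1 and 2, with a dotted line at a TPM of 1. Bars show the authors' deposited interval, its level not stated in the sources used here. They are drawn around the posterior mean TPM, another deposited estimate, and the points of Fth1 and Ftl1 lie outside them. Fth1 and Ftl1 stand far above the rest, followed by Steap3, and Slc40a1 and Ireb2 lowest.

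Among the uptake genes, Steap3, the endosomal ferrireductase (gene ENSMUSG00000026389.12, chromosome 1, 120190757 to 120272705, GRCm38), was the most abundant. It reached a TPM of 216 and 218 in replicates 1 and 2 (mean 217 ± 1.20, SD, n = 2), from 16857 and 11773 expected counts. Of all members it varied least between the libraries, with an SD of 0.550% of the mean.

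Tfrc, the transferrin receptor (ENSMUSG00000022797.11, chromosome 16, 32608920 to 32632794), had a TPM of 25.9 in replicate 1 and 17.8 in replicate 2, from 2126 and 944 counts. Of the members it varied most, with an SD of 26.3% of the mean. The authors' intervals, 20.7 to 33.0 and 13.3 to 24.6, overlapped.

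Most of the Tfrc TPM was given to transcripts without a complete coding sequence. Tfrc-203, a 166-base fragment with an effective length of 20.4 and 26.4 bases in replicates 1 and 2, took 37.5% and 42.2% of the gene's TPM on 10 and 7 counts. The exact 95% Poisson intervals of those counts were 4.80 to 18.4 and 2.81 to 14.4. The retained-intron transcript Tfrc-206 took 31.2% and 30.6%, on 266 and 127 counts.

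Tfrc-201, the transcript that encodes the receptor and carries the 4 matches to the iron-responsive element, held 1813 and 810 counts. That was 85.3% and 85.8% of the gene's counts in replicates 1 and 2, but 29.3% and 27.2% of its TPM. Its own TPM was 7.56 and 4.83. Transcripts with the matches, which add the retained-intron Tfrc-204, held 85.9% ± 0.247 of counts and 28.4% ± 1.71 of TPM (SD, n = 2). The gene-level TPM of Tfrc was thus several times that of its full-length coding transcript in each library.

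Slc11a2, which encodes DMT1 (ENSMUSG00000023030.12, chromosome 15, 100387898 to 100425072), had a TPM of 10.5 and 9.54 in replicates 1 and 2, from 1869 and 1030 counts. Unlike Tfrc, its signal lay almost wholly in complete coding transcripts, which held 98.7% and 89.0% of its TPM. These were of 2 kinds that end differently. Slc11a2-205 has 16 exons and a coding sequence of 1683 bases and carries the iron-responsive element, and Slc11a2-201 has 17 exons and one of 1704 bases and lacks it.

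The form with the element, Slc11a2-205, stood at a TPM of 5.05 in replicate 1 and 3.07 in replicate 2, and the form without it, Slc11a2-201, at 5.35 and 5.41. The form with the element was thus slightly below the other in replicate 1 and well below it in replicate 2. It held 47.9% and 32.2% of the gene's TPM, a mean of 40.1% ± 11.1 (SD, n = 2). By expected counts it held 58.3% and 45.0%, so that it led in replicate 1 on that measure. Which form was the more abundant therefore depended on the library and on the measure, and the data show only that each was present. The short transcripts Slc11a2-204 and Slc11a2-206 reached 5.56% and 5.46% in replicate 2 on 4.64 and 10.4 counts.

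Steap3 too was split between transcripts, none of which held an element match. Steap3-205, a 1288-base model whose coding sequence is annotated as incomplete, took 72.7% and 74.0% of TPM in replicates 1 and 2 and 53.5% and 55.4% of counts. Steap3-202, which encodes the whole reductase, had a TPM of 57.8 and 55.9. Complete coding transcripts of Steap3 held 26.7% ± 0.933 of TPM and 45.5% ± 1.33 of counts (SD, n = 2).

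**Figure D3:**
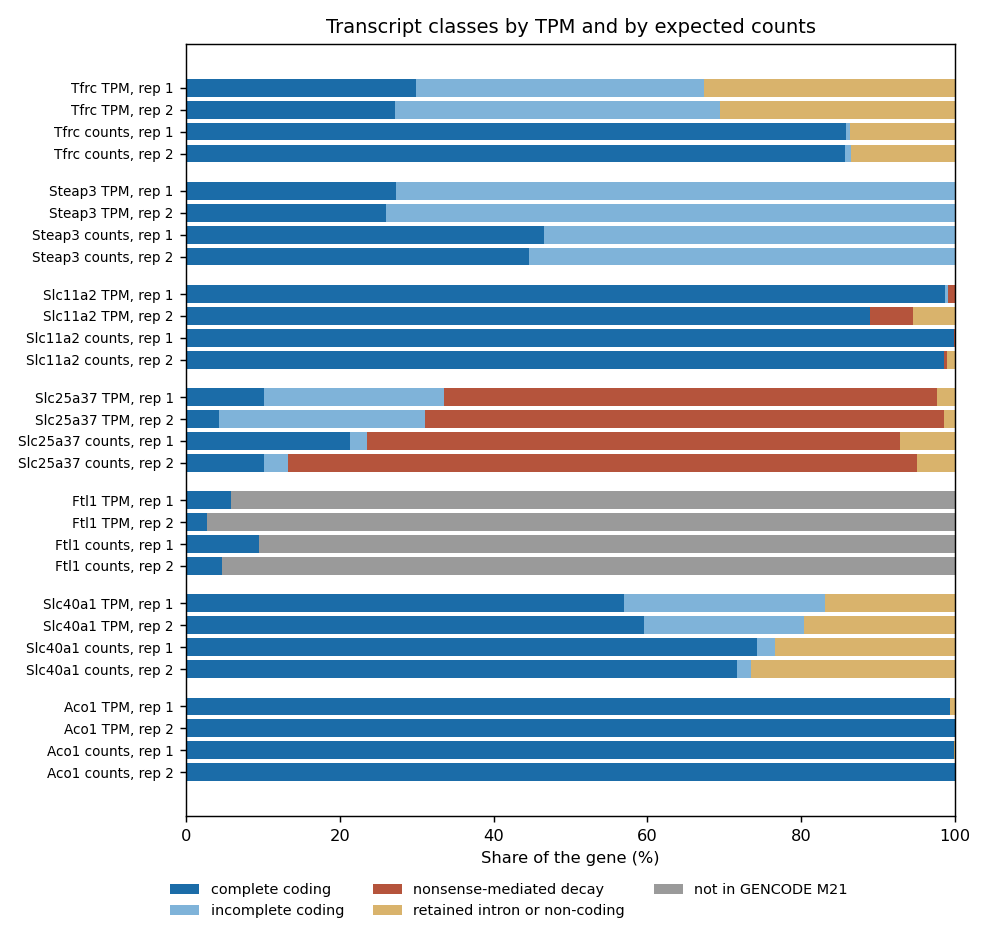
Share of each gene held by classes of transcript, for the 7 members with more than 1 transcript, by TPM and by expected counts in replicates 1 and 2. Complete coding transcripts (dark blue) hold most Tfrc counts but a minority of its TPM, and little of Slc25a37 on either measure. Most of Ftl1 lies in transcripts not in GENCODE M21, whose coding status is unknown.

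The mitoferrins differed in how much of their signal was coding. Slc25a37, mitoferrin 1, the form on which erythroid cells rely (ENSMUSG00000034248.7, chromosome 14, 69241848 to 69285112), had a TPM of 34.6 and 32.9 in replicates 1 and 2, from 3340 and 1982 counts. Slc25a28, the more widely expressed mitoferrin 2 (ENSMUSG00000040414.7, chromosome 19, 43663801 to 43674881), had 43.3 and 38.4, from 2981 and 1859 counts. Mitoferrin 1 over mitoferrin 2 was 0.800 and 0.856 by TPM, a mean of 0.828 ± 0.0397 (SD, n = 2), and 1.12 and 1.07 by counts. The side of 1 on which the ratio fell thus depended on the length correction.

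Most of the Slc25a37 signal was given to a transcript annotated for nonsense-mediated decay. Slc25a37-204, of 2212 bases, took 64.2% and 67.5% of TPM in replicates 1 and 2 and 69.3% and 81.8% of counts. Slc25a37-202, a coding fragment of 342 bases, took 23.4% and 26.7% of TPM on 76.5 and 61.4 counts. The one complete coding transcript, Slc25a37-201, held 10.1% and 4.29% of TPM, at 3.49 and 1.41. If complete coding transcripts alone were taken, mitoferrin 1 over mitoferrin 2 was 0.0806 and 0.0367. Mitoferrin 2 had a single transcript in the tables, so nothing could be lost from it in this way.

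Counts of a gene can also be taken as a whole at the length of its leading complete coding transcript. This does not use the authors' split between transcripts, but it assumes that all counts come from that transcript. For Slc25a37 that transcript was Slc25a37-201, of 4174 bases, to which the authors gave 21.25% and 10.1% of counts in replicates 1 and 2. The value for this gene therefore rests on the assumption. On that footing Slc25a37 stood at 16.4 and 13.9 on the TPM scale, and mitoferrin 1 over mitoferrin 2 at 0.379 and 0.362. Mitoferrin 1 was below mitoferrin 2 on each of these per-length measures in both libraries, by an amount that depended on the measure. Genes annotated across Slc25a37 had at most 25.5 counts in a library.

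**Figure D4:**
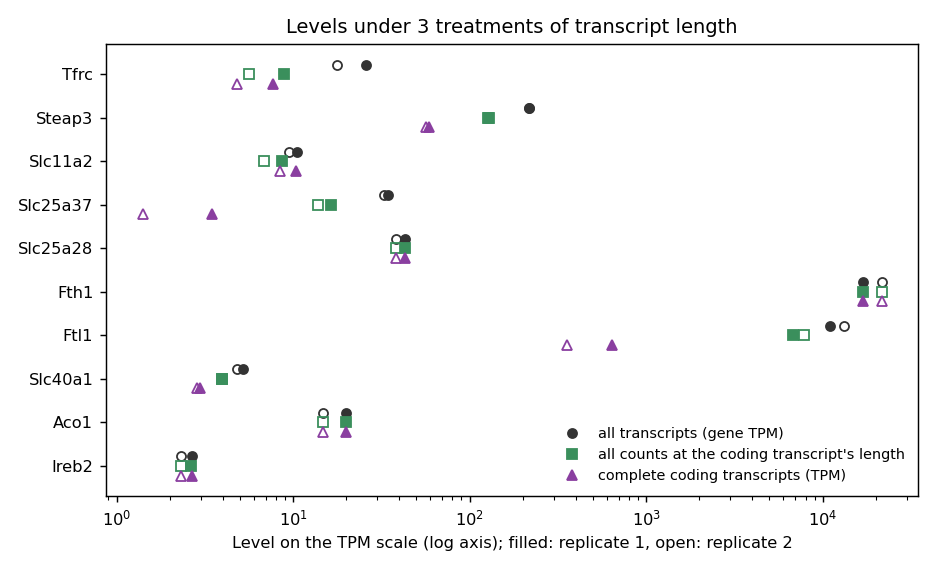
Level of each member on the TPM scale (log axis) under 3 treatments of transcript length, with replicate 1 filled and replicate 2 open. The treatments coincide for Slc25a28, Fth1 and Ireb2, nearly coincide for Aco1, and spread for Tfrc, Steap3, Slc25a37 and Ftl1.

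Ferritin was among the most abundant messages of these cells. Fth1, the heavy subunit that oxidizes iron (ENSMUSG00000024661.6, chromosome 19, 9980598 to 9985098), had a TPM of 16986 and 21558 in replicates 1 and 2, placing it at rank 4 and rank 3 among protein-coding genes. Ftl1, the light subunit that aids mineral formation (ENSMUSG00000050708.10, chromosome 7, 45457944 to 45459884), had 10976 and 13151, at rank 9 and rank 5. Together they took 1.49% and 1.74% of all expected counts.

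Heavy subunit message exceeded light in each library. By TPM, Fth1 over Ftl1 stood at 1.55 and 1.64 in replicates 1 and 2 (mean 1.59 ± 0.0649, SD, n = 2), and by counts at 2.19 and 2.42. Both genes were higher in replicate 2, with log2 ratios of replicate 2 over replicate 1 of 0.46 for Fth1 and 0.31 for Ftl1.

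Fth1 had a single transcript in the tables, Fth1-201. Ftl1 had 5, of which 4 were not in the later annotation by identifier. The largest of them, ENSMUST00000132205 of 604 bases, took 63.4% and 82.5% of Ftl1 TPM in replicates 1 and 2, and ENSMUST00000124261 of 710 bases took 30.7% and 13.2%. GENCODE M21 lists Ftl1 transcripts of those same lengths under other identifiers, Ftl1-206 as a retained intron and Ftl1-203 as a processed transcript, but equal length does not establish that they are the same. Ftl1-201, the coding transcript shown above with its iron-responsive element, held 5.85% and 2.72% of TPM and 9.46% and 4.58% of counts. The share of ferritin light chain message that carried the element can therefore not be read from these tables.

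Reads can be shared between ferritin genes and their copies. Copies were sought by symbol alone, among genes whose names begin with Fth or Ftl, so copies under other names were not counted. Expected counts are estimates of fragments per gene, so they do not show how many reads were shared. The 10 other genes named for Fth, all but Fth-ps2 bearing the name Fthl17, had 0 counts in both libraries. Of 3 other genes named for Ftl, Ftl1-ps1 had 464 and 383 counts and Ftl2-ps 560 and 33.8 in replicates 1 and 2. All 3 together were 0.365% and 0.183% of the counts of the Ftl genes, so the Fth1 over Ftl1 ratio hardly moved when the annotated pseudogenes were added, at 1.59. The small RNA gene Gm22133 lies within Ftl1 and had 156 and 334 counts.

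Export and import stood at different levels. Slc40a1, ferroportin (ENSMUSG00000025993.6, chromosome 1, 45908068 to 45926523), had a TPM of 5.20 and 4.79 in replicates 1 and 2, from 648 and 454 counts. By TPM, Tfrc over Slc40a1 stood at 4.97 and 3.71 in replicates 1 and 2 (mean 4.34 ± 0.895, SD, n = 2). By complete coding transcripts alone it was 2.61 and 1.69, so the receptor stayed above the exporter by a smaller margin.

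Ferroportin transcripts known from other work begin either before the iron-responsive element or past it, and the form without it is described in erythroid and gut cells. Transcripts holding the element, Slc40a1-201 and the retained-intron transcripts Slc40a1-202 and Slc40a1-208, took 73.9% and 79.2% of TPM in replicates 1 and 2, a mean of 76.5% ± 3.76 (SD, n = 2). By counts they took 97.7% and 98.2%. The coding transcript Slc40a1-201 had a TPM of 2.96 and 2.86, and Slc40a1-208 had 0.600 and 0.800. Of those without the element, Slc40a1-205 took 24.6% and 18.8% of TPM on 13.9 and 7.18 counts. It is 370 bases long with an incomplete coding sequence, so its part of the TPM rests on few fragments. A fragment that falls outside the 5′ end cannot tell a start before the element from a start past it, and no other complete coding transcript of Slc40a1 was in the tables.

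The iron regulatory proteins were unequal in message. Aco1, which encodes IRP1, an aconitase when it holds an iron-sulfur cluster (ENSMUSG00000028405.9, chromosome 4, 40143081 to 40198338), had a TPM of 20.0 and 14.8 in replicates 1 and 2, from 3708 and 1922 counts. Ireb2, which encodes IRP2, known to be controlled mainly by breakdown of the protein (ENSMUSG00000032293.7, chromosome 9, 54863789 to 54912530), had 2.66 and 2.33, from 761 and 467 counts. By TPM, Aco1 over Ireb2 stood at 7.52 and 6.33 in replicates 1 and 2 (mean 6.93 ± 0.843, SD, n = 2), and by counts at 4.87 and 4.12.

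This ratio moved little with the choice of transcripts. Aco1-201 held 99.4% of Aco1 TPM in replicate 1 and all of it in replicate 2, and Ireb2 had a single transcript. By complete coding transcripts alone the ratio was 7.48 and 6.33. Neither gene's transcripts held an element match, and protein levels were not measured.

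Between the libraries none of the 10 members differed by 2-fold, where 13.0% of 11205 genes with at least 10 counts did. None differed by 1.5-fold with TMM scaling (edgeR's trimmed-mean scaling of library sizes, used for these ratios unless another is named), where 33.1% of those genes did, 12.6% higher and 20.4% lower in replicate 2. Scaled by total counts, Tfrc was 1.69-fold lower in replicate 2, at a log2 ratio of -0.76 where all genes tested had a median of -0.23, and 34.9% of those genes then passed 1.5-fold. The log2 ratio of replicate 2 over replicate 1 ran from -0.56 for Tfrc to 0.46 for Fth1, with a median of -0.08 over the members and -0.03 over all genes tested. Of the members 4 were higher in replicate 2, namely Fth1, Ftl1, Slc40a1 and Steap3, and 6 were lower, but Slc40a1 was lower by TPM, and Slc40a1 and Steap3 were lower when scaled by total counts. Among detected protein-coding genes, the 10th and 90th percentiles of that ratio were -0.79 and 0.58, and all 10 members lay between them.

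**Figure D5:**
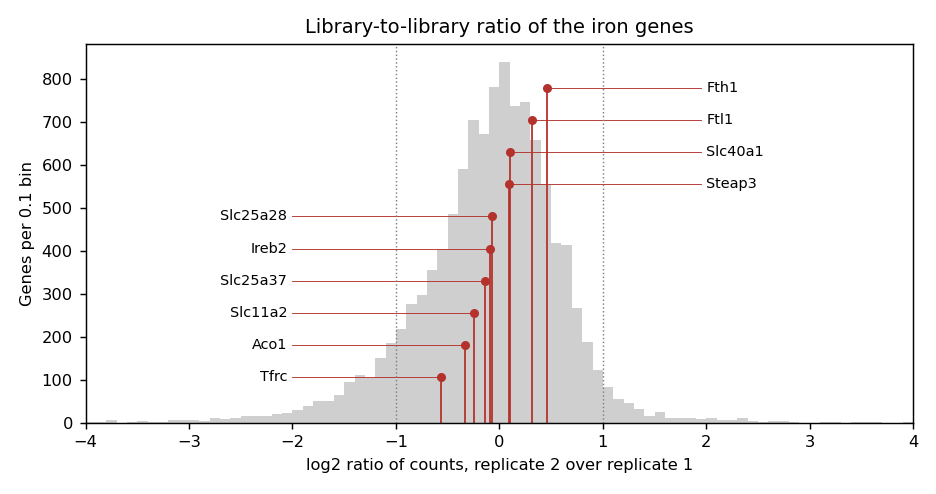
Histogram of the log2 ratio of expected counts, replicate 2 over replicate 1, for genes with at least 10 counts (grey, bins of 0.1), with the 10 members as red lines whose heights only separate the labels. All members lie between the dotted lines at 2-fold, and 54 genes beyond the axis are not drawn.

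Other genes of the iron pathway placed the members in context. Of 40 further iron genes 22 were detected, where 38.3% of 21474 protein-coding genes were, and 11 had 0 counts in both libraries. The median over the 40 was a mean TPM of 5.32. With TMM scaling, 1 of the 22 was past 2-fold higher in replicate 2, against 3.34% of all genes tested, and 0 were past 2-fold lower, against 9.69%. Zfp36l2, an RNA-binding protein of the family that promotes decay of AU-rich messages, was that 1, at a log2 ratio of 1.01, just past the threshold. It was not past 2-fold when scaled by total counts (1.76-fold) or by TPM with a pseudocount of 1 (1.88-fold).

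Among uptake partners, Snx3, a sorting nexin needed to recycle the transferrin receptor, had a TPM of 301 ± 0.700, and Exoc6, an exocyst subunit in the same route, 29.6 ± 6.26 (SD, n = 2). Tfr2, the relative of Tfrc that senses transferrin iron, had 30.7 and 29.3 in replicates 1 and 2, from 4307 and 2878 counts, above Tfrc in TPM and counts in each library. Mcoln1, an endolysosomal channel that can release iron, had 163 ± 11.6, and Slc39a8, a metal importer, 53.2 ± 7.58. By counts their order was the reverse in each library, with 2321 and 1399 for Mcoln1 and 7045 and 5958 for Slc39a8. Slc39a14, its relative, Steap1, Steap2 and Steap4, the other reductases of the Steap family, and Trf, transferrin itself, were not detected, so Steap3 was the sole detected member of its family.

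Around ferritin, Pcbp1, a chaperone that delivers iron to it, stood at 1947 ± 694 and its relative Pcbp2 at 62.4 ± 30.3 (SD, n = 2). Ncoa4, the receptor that takes ferritin to the lysosome, stood at 3.67 and 3.48 in replicates 1 and 2, low beside the ferritin genes. Fbxl5, which marks IRP2 for breakdown when iron is present, stood at 12.5 and 10.9, above Ireb2 in each library.

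Of genes that act between tissues, Erfe, the erythroid hormone that lowers hepcidin, averaged a TPM of 4.41 ± 0.842 (SD, n = 2). Hamp and Hamp2, which encode hepcidin, and Hjv, Bmp6 and Tmprss6, which control it in liver, had 0 counts in both libraries. Heph, the ferroxidase that works with ferroportin in gut, also had 0, and Cp, its plasma relative, had 0 and 2 counts. On the heme side, the exporter Flvcr1 had 49.4 and 83.8, the heme transporter Slc48a1 142 and 116, and Hmox1, which breaks heme down, 9.84 and 7.70.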

How the data were processed

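PolyA RNA-seq of 2 libraries of 1 group was analysed. Per the file headers and the notes deposited beside them, the authors estimated values from alignments to the transcriptome on mm10 with GENCODE M4. No aligner or quantifier is named in the sources used here. Expected counts, as deposited, are estimates and not normalized. The deposited TPM, scaled by effective length, was the main level. The deposited FPKM served as an alternative, as did the percent of its gene that the authors gave each transcript.

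Symbols, positions and transcript sequences came from GENCODE M21 on GRCm38, the assembly of mm10, matched by identifier without version. Of 43 transcripts of the members, 39 matched, 36 at the same length, and sequences are those of M21. Complete coding means a protein-coding transcript with no incomplete-end tag. Library ratios used expected counts rounded for TMM scaling by edgeR 4.0.16, a prior count of 0.5 and genes with at least 10 counts, with DESeq2 1.42.0 size factors as an alternative. No p-value was computed. Counting intervals are exact Poisson, at 95%, and cover counting error only. In a simulated pair of 11278 genes with Poisson counting error only, all 100 genes changed 4-fold and all 100 changed 3-fold passed 2-fold. Of 8451 unchanged genes with a mean of at least 100, 0 did. With no other spread between its libraries, that pair checks the calculation alone. In the real pair 13.0% of genes passed 2-fold.

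All 10 members are named, with their transcripts at 5% of gene TPM or more in a library and others where their sites or counts are given; of the other iron genes, those detected could be named. Undetected iron genes were named after their values were seen. The members and lists were chosen with earlier results of these data known.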

Additional observations from a re-analysis of the deposited data

How the results depend on the processing

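No paired analysis was possible because the labels hold 1 group. The count of members detected stayed at 10 by posterior mean TPM and was 8 at a TPM of 5. At a TPM of 0.5, or with a library left out, it could not fall below 10, and these settings test nothing. No member passed 2-fold with DESeq2 size factors, total counts, TPM, a prior count of 5 or a minimum of 1 count. At 1.5-fold, total counts called 1 member, Tfrc, while DESeq2 size factors and TPM called 0. Of the other iron genes, total counts and TPM called 0 past 2-fold higher in replicate 2, and called 2 and 3 past 2-fold lower. These scalings were applied to those calls after the data were seen. Scaling by total counts put the median log2 ratio at -0.28 over the members and -0.23 over all genes tested. By expected counts, Fth1 over Ftl1 was 2.30, Slc25a37 over Slc25a28 1.09, Aco1 over Ireb2 4.49 and Tfrc over Slc40a1 2.68, and the shares with an element match were 51.7% for Slc11a2 and 97.9% for Slc40a1. Counts are not per length, which accounts for those shifts by construction. Posterior mean TPM put the Slc40a1 share at 68.4%. Requiring 5 of 5 upper stem pairs put the Slc11a2 share at 0 and kept that of Slc40a1. Treatments of length chosen after the data were seen moved 3 ratios beyond 1 SD. With complete coding transcripts alone, Fth1 over Ftl1 was 43.4, a value set by the Ftl1 transcripts absent from GENCODE M21, Slc25a37 over Slc25a28 0.0587 and Tfrc over Slc40a1 2.15. With all counts at the leading coding length they were 2.63, 0.371 and 1.82. Aco1 over Ireb2 was 6.90 and 6.91. Of the 10 levels, 8 were lower by over 1 SD as FPKM, 5 with complete coding transcripts alone and 6 at the leading coding length. FPKM here is TPM times a factor common to all genes of a library, so it lowered every level by construction. Without replicate 1 or 2, each value is that of the library left, as given above. Fth1 over Ftl1 then ranged from 1.55 to 1.64 and Slc25a37 over Slc25a28 from 0.800 to 0.856. Aco1 over Ireb2 ranged from 6.33 to 7.52 and Tfrc over Slc40a1 from 3.71 to 4.97. The Slc11a2 share ranged from 32.2% to 47.9% and the Slc40a1 share from 73.9% to 79.2%.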
